A study of Mus musculus with 12 samples.

Results

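The comparison described here is between striatum of mice labelled cGAS-KO and of wild-type (WT) mice, both taken 7 days after ischemic stroke. It rests on 4 of the 12 libraries of the series, chosen by their titles: 2 labelled 7d_cGAS-KO and 2 labelled 7d_WT. All mice were C57BL/6J, all had ischemic stroke, and the cGAS-KO line was made with CRISPR-Cas9, so no uninjured or sham-operated tissue enters the comparison. The other 8 libraries are STING-KO striatum at day 7 and WT, cGAS-KO and STING-KO striatum at day 14, with 2 libraries each. They serve here for the shared estimate of spread and to show which of the 2 groups stands apart. Each library is polyadenylated RNA sequenced on an Illumina HiSeq and deposited as read counts per gene. The labels do not say whether the 2 libraries of a group came from separate mice, so p-values measure only the spread between these libraries.

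The enzyme cGAS binds double-stranded DNA in the cytosol and makes cyclic GMP-AMP, a second messenger. STING, encoded by Tmem173 (now also called Sting1), binds that messenger on the endoplasmic reticulum and recruits the kinase TBK1, which activates the transcription factor IRF3 and so interferon genes. In the injured brain the pathway is best known from microglia and infiltrating myeloid cells, which take up DNA from dying cells. The striatum itself consists mostly of GABAergic spiny projection neurons, with some interneurons, and it borders the lateral ventricle, the corpus callosum and the cortex. A block of tissue cut from it can therefore hold differing amounts of ependyma, choroid plexus, white matter and neighbouring grey matter.

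The 4 libraries held 16115387 and 19053120 counts for labelled cGAS-KO and 17619711 and 20128376 for WT, and the Pearson correlation of log2 CPM between the 2 libraries of a group was 0.979 and 0.988. CPM below is the usual library-scaled read count, with library sizes adjusted by the trimmed mean of M-values. In these libraries 3 counts correspond to 0.153 to 0.181 CPM. A log2 change is labelled cGAS-KO minus WT ± its standard error, and adjusted p-values are from edgeR's quasi-likelihood test. The targeted gene did not follow its label: Cgas was at 3.25 and 2.97 CPM in the WT libraries and 5.55 and 5.66 CPM in those labelled cGAS-KO (log2 change 0.85 ± 0.32, adjusted p = 0.0438). That call was lost in 9 of 14 other settings, among them each fit without 1 of the 4 libraries (log2 change 0.76 to 0.90). The files do not show which part of the gene the deletion removes, so the libraries are referred to by their labels. Summed CPM of 38 striatal projection neuron genes, a list taken up below, was lower in both groups than in every library of day 14. It was 1758 and 1856 CPM in WT and 786 and 1416 CPM in labelled cGAS-KO. At day 14 it was 3131 and 2763 CPM in WT and 4894 and 7352 CPM in cGAS-KO. The sums were largest in STING-KO at day 14, with 16546 and 18759 CPM. Drd1, the D1 dopamine receptor, was at 4.77 and 4.45 CPM in WT and 2.17 and 11.2 CPM in labelled cGAS-KO (adjusted p = 0.561) and at 376 and 325.0 CPM in the 14-day STING-KO libraries.

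A large part of the genes tested differed between the groups. Of 19822 genes tested, 9964 (50.3%) passed an adjusted p of 0.05, of which 5515 (27.8%) were higher and 4449 (22.4%) lower in the libraries labelled cGAS-KO, and the median log2 change over all genes tested was 0.04. At least 2-fold differences were called in 4117 genes (20.8%) upward and 2731 (13.8%) downward. The upward tail was the longer one: the 95th percentile of the log2 change was 3.68 and the 5th percentile was -2.02, and 748 called genes had a log2 change of at least 4 upward and 84 downward. The 2 libraries of one group lay wholly above or below those of the other in 15893 genes (80.2%), so a lack of overlap alone carries little information with 2 libraries a group.

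**Figure D1:**
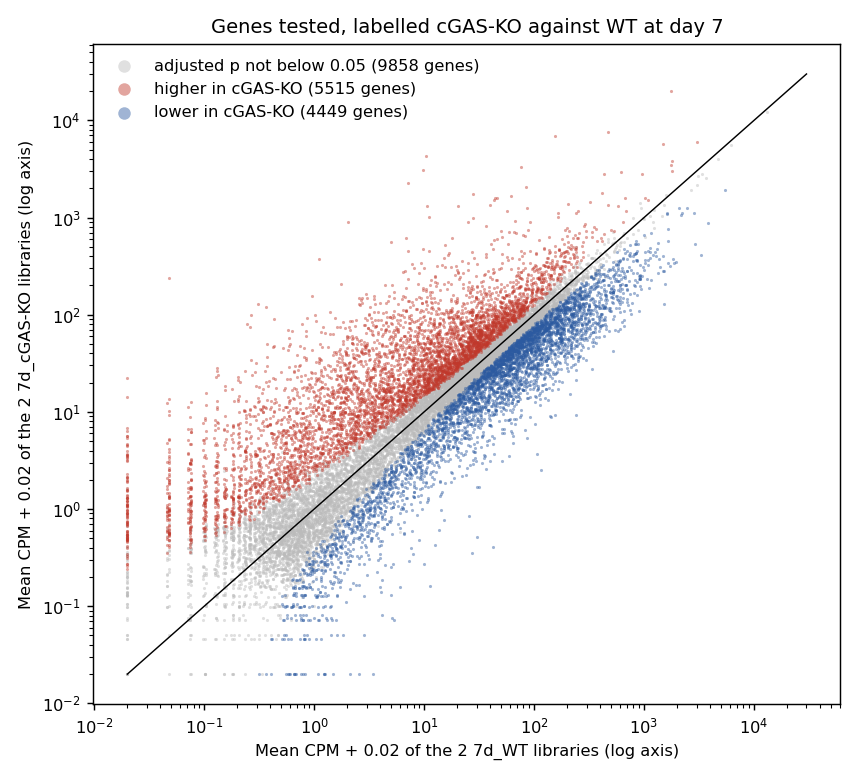
Mean CPM of the 2 7d_WT libraries (horizontal, log axis) against the mean of the 2 7d_cGAS-KO libraries (vertical, log axis) for each of 19822 genes tested, with 0.02 added so that genes at 0 can be drawn. Red genes are called higher (5515), blue genes lower (4449) and grey genes not called (9858); the line marks equal means, and the red cloud reaches farther from it than the blue.

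The calls were unevenly spread over kinds of gene. Protein-coding genes were called in 56.4% of 15699 cases, intergenic long noncoding RNAs in 32.5% of 916, antisense RNAs in 26.7% of 893 and pseudogenes in 23.7% of 957. Among protein-coding genes the direction went with length. The shortest decile by gene length had a median log2 change of 0.36, with 36.5% higher and 14.8% lower, and the longest decile had -0.54, with 21.1% higher and 48.8% lower. The same order held by exonic length (0.46 and -0.28) and by mean expression (0.52 in the lowest and -0.30 in the highest decile). Across 15699 protein-coding genes, Spearman's rho of the log2 change was -0.168 with gene length, -0.185 with exonic length and -0.210 with mean expression; these are descriptions over genes, which are not independent. Autosomes and the X chromosome each had 45.5% to 55.7% of their genes called, and none of 30 genes of the mitochondrial genome was.

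**Figure D2:**
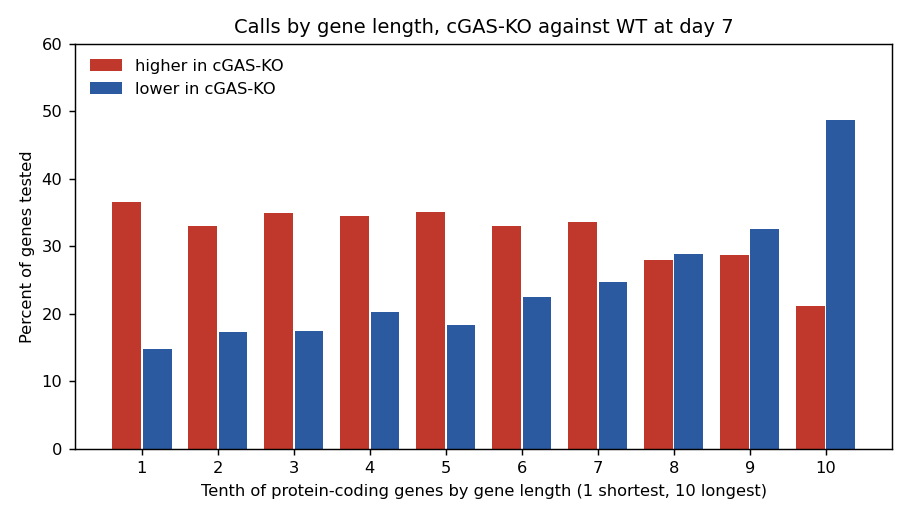
Percent of protein-coding genes called higher (red) or lower (blue) in labelled cGAS-KO than in WT at day 7, for deciles of 15699 genes ordered by gene length. The share lower rises from 14.8% in the shortest decile to 48.8% in the longest, and the share higher falls from 36.5% to 21.1%.

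Among 9964 called genes, the 7d_WT pair lay outside the range of all 10 other libraries in 4603 (46.2%), and the 7d_cGAS-KO pair in 1405 (14.1%). Over all genes tested the shares were 28.9% and 8.64%. The WT pair was the extreme one more often in either direction, with 2514 called genes where it was the lowest and 2089 where it was the highest. For 4318 called genes (43.3%) neither pair was outside the others.

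The effect of the label also differed by day. In the test of the difference between the cGAS-KO effect at day 7 and that at day 14, 7271 genes (36.7%) passed, including 6941 (69.7%) of those called at day 7. At day 14 itself 6 genes were called. Against the STING-KO libraries of the same day, which share no library with the cGAS-KO group, 32 genes (0.161%) differed.

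The rises of largest fold were led by macrophage and matrix genes, among called protein-coding genes with a mean log2 CPM of at least 3 over all libraries and no overlap between the groups. Cd5l, a scavenger protein secreted by macrophages, had 1 count in the WT libraries together and 8763 in those labelled cGAS-KO, a 9406-fold ratio with a 95% counting interval of 1688 to 371549. The libraries labelled cGAS-KO were at 149 and 324 CPM, and the fitted log2 change, which depends on the prior count, was 11.88 to 15.10 without 1 of the libraries. Atp6v0d2, a subunit of the proton pump of macrophages and osteoclasts, had none in WT and 810 in labelled cGAS-KO, at least 143-fold higher against a floor of 3 counts per library. Col3a1, the chain of type III collagen, was at 2.19 and 1.79 CPM in the WT libraries and 1037 and 780.0 CPM in those labelled cGAS-KO (log2 change 8.83 ± 0.96, adjusted p = 2.22e-05). Lox, which crosslinks collagen, was at 0.168 and 0.409 CPM in WT and 154 and 106 CPM in labelled cGAS-KO (log2 change 8.75). Separation of the groups was a condition of this choice, so it is no independent result for these genes. Lyz2 (8.69), Wfdc17 (8.64), Lilr4b (8.51), Lgals3 (8.45), Gpnmb (8.33) and Spp1 (8.32), all known from activated macrophages or microglia, with log2 changes in parentheses, completed the 10 largest rises by log2 change within these limits. The fold moved by over 1.5 times, still called, for Lox (log2 change 9.53 without WT library 2), Lyz2 (log2 change 9.85 without WT library 1, 8.04 without WT library 2), Wfdc17 (log2 change 9.25 without WT library 1), Lilr4b (log2 change 13.55 without WT library 1, 7.47 without WT library 2), Lgals3 (log2 change 10.45 without WT library 1, 7.60 without WT library 2), Gpnmb (log2 change 9.09 without WT library 1) and Spp1 (log2 change 9.61 without WT library 1, 7.63 without WT library 2).

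The falls of largest fold within the same limits included markers of hippocampal and thalamic neurons. Lct, the lactase gene, whose brain transcript is known from dentate granule cells, was at 47.51 and 37.02 CPM in the WT libraries and 0.724 and 0.0514 CPM in those labelled cGAS-KO (log2 change -6.83 ± 1.21, adjusted p = 0.000531). The 2 libraries labelled cGAS-KO differed from each other here, and both were far below WT. Pcdh20, a protocadherin, was at 108 and 105 CPM in WT and 4.04 and 3.34 CPM in labelled cGAS-KO (log2 change -4.85 ± 0.47, adjusted p = 9.77e-06). Cabp7, a neuronal calcium-binding protein, was at 243 and 238 CPM in WT and 9.11 and 9.52 CPM in labelled cGAS-KO (log2 change -4.69 ± 0.52, adjusted p = 2.4e-05). C1ql2, a synapse organiser of mossy fibres, changed by -5.59 on the log2 scale, and Gabra5, the GABA-A receptor subunit typical of hippocampal pyramidal cells, by -4.01. Epha6 (-4.17), Dsp (-4.07), Npy2r (-4.06), Shisa6 (-4.04) and Slc17a6 (-4.03) made up the rest of those 10 falls, again with log2 changes in parentheses. By over 1.5 times, still called, the fold moved for Lct (log2 change -9.55 without labelled cGAS-KO library 1, -5.93 without labelled cGAS-KO library 2) and C1ql2 (log2 change -6.92 without labelled cGAS-KO library 1, -4.94 without labelled cGAS-KO library 2).

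Gene lists were used to describe the difference by cell type and process: 55 lists with 1912 genes tested, some of them in more than 1 list. Each list's count can be read against the background of 27.8% higher and 22.4% lower and the median of 0.04 over all genes. In 23 lists over 50% of the members tested were called higher and in 12 lists over 50% were called lower. In bulk tissue fewer cells of a type and less RNA per cell cannot be told apart, and this holds for every list below.

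**Figure D3:**
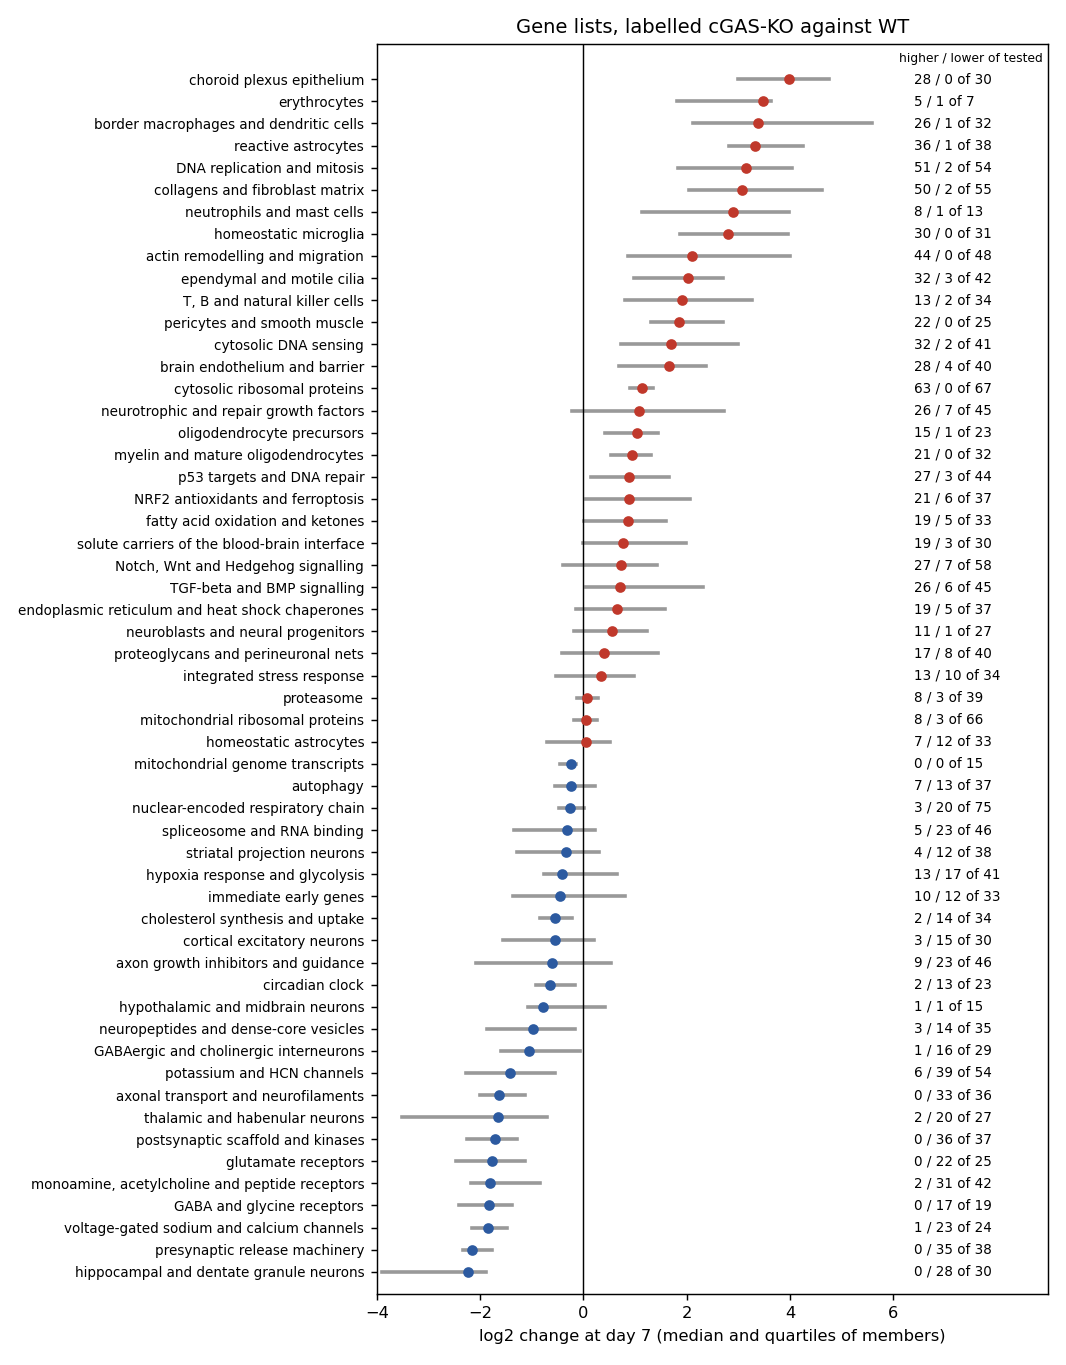
Median log2 change (points) and quartiles (lines) of the members tested in each of 55 gene lists, labelled cGAS-KO against WT at day 7, with the counts called higher and lower at the right. Most lists of glia, and those of vessels, ventricle lining and proliferation lie right of 0 and the lists of synapses, channels and hippocampal neurons left of it, from a median of -2.23 for hippocampal neurons to 3.99 for choroid plexus.

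The 7d_WT libraries were rich in transcripts of hippocampal, thalamic and cortical neurons. Summed CPM of the hippocampal and dentate granule list was 1899 and 1938 CPM in the WT libraries and 489.6 and 538 CPM in those labelled cGAS-KO, against 487 to 1261 CPM in the 8 libraries of other groups. For the thalamic and habenular list the sums were 1616 and 1367 CPM in the WT libraries and 749 and 594 CPM in those labelled cGAS-KO, against 368 to 754 CPM in the other 8. For the cortical list they were 2803 and 3253 CPM in the WT libraries and 1206 and 1382 CPM in those labelled cGAS-KO, against 826 to 1644 CPM. In each of these 3 lists the WT pair was above all other 10 libraries. The list of hypothalamic and midbrain neurons showed no such excess: its sums were 32.9 and 31.6 CPM in the WT libraries and 22.3 and 27.4 CPM in those labelled cGAS-KO, against 29.4 to 51.7 CPM in the other 8, and 1 of 15 members tested rose, 1 fell and the median log2 change was -0.78. The striatal projection neuron list did not have that order: its sums were 1758 and 1856 CPM in the WT libraries and 786 and 1416 CPM in those labelled cGAS-KO, and the other 8 ranged from 872 to 18759 CPM, although the WT pair was the highest of day 7. The presynaptic release list, which is not of one region, also had the WT pair above all others. Its sums were 20425 and 22298 CPM in WT and 4351 and 5727 CPM in labelled cGAS-KO, against 4702 to 10956 CPM in the other 8. The regional sums are not scaled to total neuron content, so they do not separate the 2. Such a sum is weighted towards the most abundant members, and the part of tissue sampling in the differences was not tested.

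**Figure D4:**
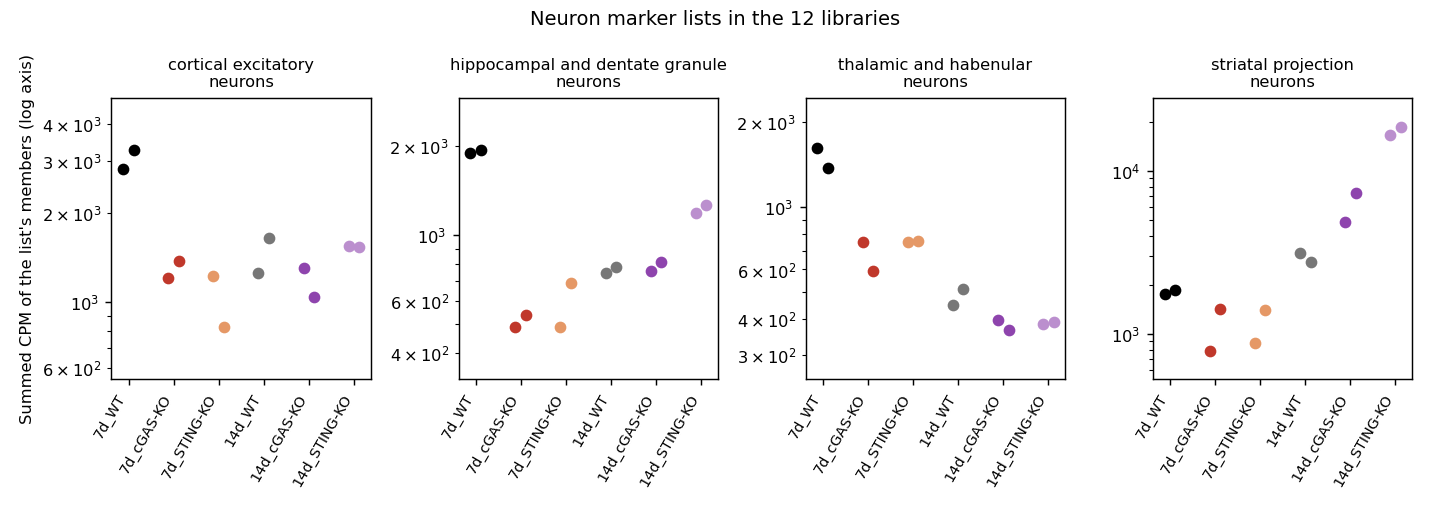
Summed CPM (log axis) of 4 neuron marker lists in the 12 libraries, with 2 points per group. The 7d_WT points are the highest for the cortical, hippocampal and thalamic lists, whereas for striatal projection neurons the 14-day libraries are the highest.

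In the hippocampal list 0 of 30 members tested rose, 28 fell and the median log2 change was -2.23. The WT pair was outside all other libraries for 22 of the 30. Prox1, the transcription factor of dentate granule cells, was at 121 and 131 CPM in the WT libraries and 22.9 and 28.6 CPM in those labelled cGAS-KO (log2 change -2.29 ± 0.28, adjusted p = 4.2e-05). Fibcd1, a CA1 marker, was at 75.2 and 107 CPM in WT and 14.4 and 3.29 CPM in labelled cGAS-KO (log2 change -3.39 ± 0.53, adjusted p = 0.000288). Spink8, also a pyramidal cell marker of the hippocampus, was at 10.04 and 12.53 CPM in WT and 0.181 and 0.103 CPM in labelled cGAS-KO (log2 change -6.28 ± 0.55, adjusted p = 2.34e-06). Grik4, the kainate receptor subunit of CA3, was at 69.1 and 74.7 CPM in WT and 11.8 and 13.8 CPM in labelled cGAS-KO (log2 change -2.49). Wfs1, marking CA1 but also striatum and amygdala, did not pass (66.97 and 67.3 CPM in WT and 39.1 and 79.6 CPM in labelled cGAS-KO, adjusted p = 0.609), and its WT values lay between the 2 labelled cGAS-KO values. Leaving out a library brought a call for Wfs1 (log2 change -0.86 without labelled cGAS-KO library 2). With the call kept, the fold moved by over 1.5 times for Fibcd1 (log2 change -4.83 without labelled cGAS-KO library 1, -2.74 without labelled cGAS-KO library 2).

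Among thalamic and habenular markers 2 of 27 members tested rose, 20 fell and the median log2 change was -1.66. Slc17a6, the vesicular glutamate transporter of thalamus and other subcortical nuclei, was at 103 and 69.6 CPM in the WT libraries and 6.70 and 3.96 CPM in those labelled cGAS-KO (log2 change -4.03 ± 0.49, adjusted p = 4.92e-05). Ntng1, a netrin-G of thalamocortical axons, was at 113 and 91.7 CPM in WT and 7.84 and 7.05 CPM in labelled cGAS-KO (log2 change -3.78 ± 0.29, adjusted p = 1.2e-06). Lhx9, a thalamic transcription factor, was at 25.2 and 26.3 CPM in WT and 1.57 and 0.103 CPM in labelled cGAS-KO (log2 change -5.02). Tcf7l2, which marks thalamus but also newly formed oligodendrocytes, was at 104 and 65.96 CPM in WT and 28.2 and 25.47 CPM in labelled cGAS-KO (log2 change -1.66). In all of these the WT pair was the higher. Library 1 exceeded library 2 of WT for Slc17a6, Ntng1 and Tcf7l2. One of the members that rose, Zic4, is also a gene of meninges (9.76 and 5.11 CPM in WT and 59.7 and 32.2 CPM in labelled cGAS-KO, log2 change 2.63). In the STING-KO libraries of day 7, Slc17a6 was at 43.1 and 22.1 CPM and Ntng1 at 23.3 and 31.2 CPM. Single libraries left out moved the fold by over 1.5 times, with the call kept, for Lhx9 (log2 change -7.92 without labelled cGAS-KO library 1, -4.11 without labelled cGAS-KO library 2).

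The cortical list was mixed: 3 of 30 members tested rose, 15 fell and the median log2 change was -0.56. Neurod6, a pyramidal neuron transcription factor, was at 136 and 142 CPM in the WT libraries and 7.66 and 10.49 CPM in those labelled cGAS-KO (log2 change -3.93 ± 0.44, adjusted p = 2.71e-05). Slc17a7, the vesicular glutamate transporter of cortex and hippocampus, was at 1272 and 1524 CPM in WT and 248 and 366 CPM in labelled cGAS-KO (log2 change -2.19 ± 0.63, adjusted p = 0.0129). Emx1, a dorsal forebrain homeobox gene, changed by -1.33 on the log2 scale. The layer marker Tbr1 did not pass (37.6 and 45.1 CPM in WT and 23.2 and 29.99 CPM in labelled cGAS-KO, adjusted p = 0.37). Members that rose are also expressed outside neurons, among them Cux1 at 50.9 and 49.9 CPM in WT and 136 and 130.1 CPM in labelled cGAS-KO and Ccn2, a target of mechanical and TGF-beta signalling, at 6.11 and 6.65 CPM in WT and 65.3 and 27.1 CPM in labelled cGAS-KO (log2 changes 1.40 and 2.85). The call was lost on leaving out 1 library for Slc17a7 (log2 change -2.05 without WT library 2, -1.97 without labelled cGAS-KO library 1). By over 1.5 times, still called, the fold moved for Ccn2 (log2 change 2.04 without labelled cGAS-KO library 1).

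Among genes of striatal projection neurons 4 of 38 members tested rose, 12 fell and the median log2 change was -0.34. Bcl11b, a transcription factor shared with deep-layer cortex and hippocampus, was at 139 and 157 CPM in the WT libraries and 13.1 and 25.7 CPM in those labelled cGAS-KO (log2 change -2.93 ± 0.43, adjusted p = 0.000198). Markers more restricted to the striatum were not called lower. Drd2 was at 4.82 and 3.27 CPM in WT and 0.845 and 8.54 CPM in labelled cGAS-KO (adjusted p = 0.818). Ppp1r1b, encoding DARPP-32, was at 49.98 and 38.96 CPM in WT and 48.50 and 116 CPM in labelled cGAS-KO (adjusted p = 0.117). Penk was at 24.1 and 21.9 CPM in WT and 22.50 and 79.1 CPM in labelled cGAS-KO (adjusted p = 0.123). Adora2a, an adenosine receptor of striatopallidal neurons, rose (4.21 and 2.15 CPM in WT and 6.70 and 33.54 CPM in labelled cGAS-KO, log2 change 2.68 ± 0.94, adjusted p = 0.0341). For Drd1, Drd2, Penk, Ppp1r1b and Adora2a alike, library 2 labelled cGAS-KO was the highest of the 4, with library 1 near or below the WT values for Drd1, Drd2 and Penk. No call remained without 1 of the libraries for Adora2a (log2 change 3.22 without WT library 1, 2.27 without WT library 2, 1.01 without labelled cGAS-KO library 2). On leaving out 1 library, a call was gained by Ppp1r1b (log2 change 1.34 without labelled cGAS-KO library 1) and Penk (log2 change 1.74 without labelled cGAS-KO library 1). Single libraries left out moved the fold by over 1.5 times, with the call kept, for Bcl11b (log2 change -3.58 without labelled cGAS-KO library 2) and Adora2a (log2 change 3.37 without labelled cGAS-KO library 1).

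Interneuron genes, GABAergic and cholinergic, gave the following: 1 of 29 members tested rose, 16 fell and the median log2 change was -1.05. The member that rose was Slc5a7, and 12 members were not called. Values of cholinergic members are not given here. Gad1, which makes GABA, was at 366 and 321 CPM in the WT libraries and 58.3 and 73.47 CPM in those labelled cGAS-KO (log2 change -2.38 ± 0.20, adjusted p = 2.26e-06). Pvalb was at 57.9 and 29.6 CPM in WT and 12.8 and 8.69 CPM in labelled cGAS-KO (log2 change -2.03). Sst was at 108 and 156 CPM in WT and 34.9 and 47.3 CPM in labelled cGAS-KO (log2 change -1.69). Of neuroblast and progenitor genes 11 of 27 members tested rose, 1 fell and the median log2 change was 0.56. Nes, the intermediate filament of progenitors, reactive astrocytes and vessels, rose from 6.96 and 10.99 CPM to 89.3 and 58.6 CPM (log2 change 3.04), and Fabp7 by 3.01. Tubb3, a tubulin of neurons of all ages, fell by 1.57 on the log2 scale.

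**Figure D5:**
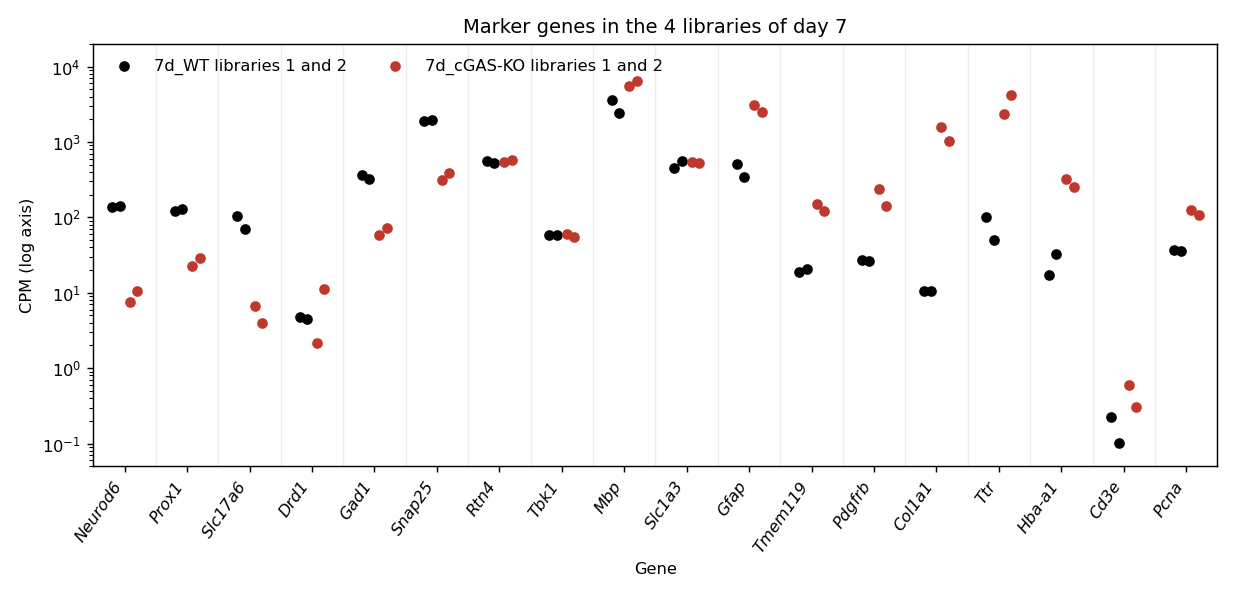
CPM (log axis) of 18 marker genes in the 2 WT (black) and 2 labelled cGAS-KO (red) libraries of day 7. Neuron genes such as Neurod6, Prox1, Slc17a6 and Snap25 are lower in both red points, Drd1, Tbk1, Slc1a3 and Cd3e do not pass the test, and Gfap, Tmem119, Col1a1 and Ttr are higher in both red points.

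Synaptic genes were lower almost throughout. In the presynaptic release list 0 of 38 members tested rose, 35 fell and the median log2 change was -2.16. Snap25, a SNARE protein of vesicle fusion, was at 1922 and 1958 CPM in the WT libraries and 309 and 391 CPM in those labelled cGAS-KO (log2 change -2.47 ± 0.26, adjusted p = 1.08e-05). Nsf, the ATPase that takes SNARE complexes apart, was at 1079.8 and 1119 CPM in WT and 178 and 196 CPM in labelled cGAS-KO (log2 change -2.55). Cplx1, a clamp of vesicle fusion, was at 658 and 660.1 CPM in WT and 103 and 114 CPM in labelled cGAS-KO (log2 change -2.60). Stx1a was the best-expressed member that did not pass (82.3 and 113 CPM in WT and 67.8 and 95.7 CPM in labelled cGAS-KO, adjusted p = 0.693). For the postsynaptic density 0 of 37 members tested rose, 36 fell and the median log2 change was -1.70. Camk2a, the kinase of synaptic plasticity in forebrain excitatory neurons, was at 3583 and 4121 CPM in the WT libraries and 617 and 1141 CPM in those labelled cGAS-KO (log2 change -2.13 ± 0.41, adjusted p = 0.00124). Dlg4, encoding PSD-95, was at 793 and 918 CPM in WT and 204 and 336 CPM in labelled cGAS-KO (log2 change -1.66). In these 2 lists the WT pair was outside all other libraries in 31 of 38 and 19 of 37 members. Summed CPM of the presynaptic list was 20425 and 22298 CPM in the WT libraries and 4351 and 5727 CPM in those labelled cGAS-KO. The fold moved by over 1.5 times, still called, for Camk2a (log2 change -2.72 without labelled cGAS-KO library 2).

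Neurotransmitter receptor genes were lower as well. Of glutamate receptor subunits 0 of 25 members tested rose, 22 fell and the median log2 change was -1.78. Grin2b, an NMDA receptor subunit, was at 500.3 and 561 CPM in the WT libraries and 73.4 and 119 CPM in those labelled cGAS-KO (log2 change -2.46 ± 0.23, adjusted p = 5.55e-06). Gria2, an AMPA receptor subunit, was at 901 and 977 CPM in WT and 153 and 218 CPM in labelled cGAS-KO (log2 change -2.34). Grm2, a presynaptic metabotropic receptor, was at 66.7 and 68.52 CPM in WT and 6.46 and 8.49 CPM in labelled cGAS-KO (log2 change -3.17). Grm3, which astrocytes also express, did not pass (adjusted p = 0.215). For GABA and glycine receptors 0 of 19 members tested rose, 17 fell and the median log2 change was -1.83. In the list of monoamine, acetylcholine and peptide receptors 2 of 42 members tested rose, 31 fell and the median log2 change was -1.80. Chrna7, the alpha7 nicotinic subunit, was at 22.04 and 25.97 CPM in WT and 2.05 and 2.37 CPM in labelled cGAS-KO (log2 change -3.43 ± 0.29, adjusted p = 2.43e-06).

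Most channel genes fell. Among voltage-gated sodium and calcium channels 1 of 24 members tested rose, 23 fell and the median log2 change was -1.85. Scn1a, the sodium channel of fast-spiking interneurons, was at 179 and 153 CPM in the WT libraries and 25.9 and 28.9 CPM in those labelled cGAS-KO (log2 change -2.60 ± 0.21, adjusted p = 1.97e-06). Scn7a, a sodium channel of glia, was the exception (3.70 and 4.50 CPM in WT and 8.39 and 7.20 CPM in labelled cGAS-KO, log2 change 0.92 ± 0.32, adjusted p = 0.0329). Among potassium and HCN channels 6 of 54 members tested rose, 39 fell and the median log2 change was -1.42. Kcnd2, an A-type channel of dendrites, was at 117 and 125 CPM in WT and 18.9 and 19.1 CPM in labelled cGAS-KO (log2 change -2.66 ± 0.16, adjusted p = 2.99e-07). Kcnn4, a calcium-activated channel of lymphoid and myeloid cells, rose from 0.280 and 0.358 CPM to 10.4 and 12.4 CPM (log2 change 5.13), and the microglial channel Kcnk13 by 1.64. Kcnj10, the main channel of astrocytes, did not pass (203 and 168 CPM in WT and 207 and 229 CPM in labelled cGAS-KO, adjusted p = 0.339). Scn7a lost its call whichever of the 4 libraries was left out. Its log2 change was 0.77 without WT library 1 and 1.07 without WT library 2. It was 0.77 without labelled cGAS-KO library 1 and 0.95 without labelled cGAS-KO library 2.

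For axonal transport and neurofilaments 0 of 36 members tested rose, 33 fell and the median log2 change was -1.63. The 3 neurofilament subunits fell: Nefl was at 311 and 304 CPM in the WT libraries and 36.6 and 53.4 CPM in those labelled cGAS-KO (log2 change -2.77 ± 0.30, adjusted p = 1.94e-05), Nefm changed by -3.15 on the log2 scale and Nefh by -3.27. Kif5a, the motor of axonal cargo, fell less (2218 and 2179 CPM in WT and 1017 and 1206 CPM in labelled cGAS-KO, log2 change -0.98). Tubb4a, a tubulin shared with oligodendrocytes, did not pass (adjusted p = 0.477). Neuropeptide and dense-core vesicle genes gave a milder picture: 3 of 35 members tested rose, 14 fell and the median log2 change was -0.98. Cck was at 263 and 284 CPM in WT and 69.1 and 87.00 CPM in labelled cGAS-KO (log2 change -1.81 ± 0.34, adjusted p = 0.00106). Npy was at 26.6 and 28.9 CPM in WT and 11.9 and 19.8 CPM in labelled cGAS-KO (log2 change -0.80). The 3 members that rose, Edn1, Edn3 and Adm, encode vasoactive peptides, with Edn3 at 5.61 and 2.97 CPM in WT and 27.03 and 29.4 CPM in labelled cGAS-KO (log2 change 2.73). No call remained without 1 of the libraries for Kif5a (log2 change -0.91 without labelled cGAS-KO library 1) and Npy (log2 change -0.88 without WT library 1, -0.74 without WT library 2, -0.53 without labelled cGAS-KO library 1).

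Immediate early genes, which neurons switch on with activity and many cells with stress, were split: 10 of 33 members tested rose, 12 fell and the median log2 change was -0.45. Bdnf was at 40.9 and 33.3 CPM in the WT libraries and 3.44 and 5.71 CPM in those labelled cGAS-KO (log2 change -3.01 ± 0.28, adjusted p = 4.73e-06). Nr4a1 was at 68.9 and 71.9 CPM in WT and 24.49 and 30.1 CPM in labelled cGAS-KO (log2 change -1.37). Fos (12.45 and 14.8 CPM in WT and 22.9 and 20.6 CPM in labelled cGAS-KO, adjusted p = 0.155) and Egr1 (86.7 and 119.5 CPM in WT and 47.96 and 64.00 CPM in labelled cGAS-KO, adjusted p = 0.0778) did not pass. Atf3, induced by injury and stress, was at 1.35 and 0.102 CPM in WT and 37.2 and 58.8 CPM in labelled cGAS-KO (log2 change 6.09 ± 0.51, adjusted p = 3.49e-06). Klf6 was at 28.7 and 32.98 CPM in WT and 81.2 and 81.49 CPM in labelled cGAS-KO (log2 change 1.40). One library less ended the call of Nr4a1 (log2 change -1.33 without WT library 2, -1.27 without labelled cGAS-KO library 1). Single libraries left out moved the fold by over 1.5 times, with the call kept, for Atf3 (log2 change 8.77 without WT library 1, 5.15 without WT library 2).

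Oligodendrocyte genes were higher. In the myelin list 21 of 32 members tested rose, 0 fell and the median log2 change was 0.94. Mbp was at 3558 and 2464 CPM in the WT libraries and 5486 and 6444 CPM in those labelled cGAS-KO (log2 change 0.99 ± 0.28, adjusted p = 0.0111), and WT library 1 exceeded library 2. Mobp did not pass (1169 and 682 CPM in WT and 1360.3 and 1455 CPM in labelled cGAS-KO, adjusted p = 0.101). Klk6, a protease of mature oligodendrocytes, was at 6.51 and 4.55 CPM in WT and 44.8 and 52.53 CPM in labelled cGAS-KO (log2 change 3.14). Of oligodendrocyte precursor genes 15 of 23 members tested rose, 1 fell and the median log2 change was 1.03. Pdgfra, the receptor that marks these precursors and perivascular fibroblasts, was at 46.3 and 51.49 CPM in WT and 143 and 128 CPM in labelled cGAS-KO (log2 change 1.47 ± 0.20, adjusted p = 7.4e-05). The call was lost on leaving out 1 library for Mbp (log2 change 0.75 without WT library 2, 0.79 without labelled cGAS-KO library 2). The test passed with 1 library fewer for Mobp (log2 change 1.03 without WT library 1).

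Reactive astrocyte genes rose and homeostatic ones changed in both directions. In the reactive list 36 of 38 members tested rose, 1 fell and the median log2 change was 3.31. Gfap was at 519 and 339 CPM in the WT libraries and 3132 and 2533 CPM in those labelled cGAS-KO (log2 change 2.72 ± 0.51, adjusted p = 0.00104) and Vim, an intermediate filament of reactive astrocytes, vessels and myeloid cells, at 47.4 and 31.3 CPM in WT and 1679.5 and 987 CPM in labelled cGAS-KO (log2 change 5.08). Amigo2 was the one that fell (log2 change -1.78). In the homeostatic list 7 of 33 members tested rose, 12 fell and the median log2 change was 0.05. The glutamate transporter gene Slc1a2 fell by 0.76 on the log2 scale, while Aqp4, the water channel of endfeet, rose by 0.80 on the log2 scale and Gja1, a gap junction gene, by 0.84 on the same scale. Slc1a3 did not differ beyond its spread (453 and 563 CPM in WT and 538 and 529.5 CPM in labelled cGAS-KO, adjusted p = 0.885). Slc6a11, a GABA transporter of astrocytes that is strong in thalamus, was at 317 and 264 CPM in WT and 61.4 and 78.1 CPM in labelled cGAS-KO (log2 change -2.06 ± 0.17, adjusted p = 2.49e-06). Gjb2, a connexin of astrocytes and leptomeninges, was at 7.01 and 5.42 CPM in WT and 119.6 and 78.1 CPM in labelled cGAS-KO (log2 change 3.99 ± 0.26, adjusted p = 4.89e-07). No call remained without 1 of the libraries for Slc1a2 (log2 change -0.61 without WT library 2, -0.55 without labelled cGAS-KO library 1), Aqp4 (log2 change 0.67 without WT library 2, 0.55 without labelled cGAS-KO library 2) and Gja1 (log2 change 0.80 without WT library 2, 0.66 without labelled cGAS-KO library 1).

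Microglial identity genes rose: 30 of 31 members tested rose, 0 fell and the median log2 change was 2.79. Tmem119 was at 18.9 and 20.45 CPM in the WT libraries and 149.6 and 122 CPM in those labelled cGAS-KO (log2 change 2.79 ± 0.30, adjusted p = 1.95e-05). Cx3cr1, the fractalkine receptor, was at 43.1 and 41.9 CPM in WT and 405 and 535 CPM in labelled cGAS-KO (log2 change 3.47). P2ry12, a purine receptor of resting microglia, was at 24.1 and 29.04 CPM in WT and 75.2 and 78.7 CPM in labelled cGAS-KO (log2 change 1.53). Median log2 changes for the list were 2.79 here and 3.01 in STING-KO against the same WT libraries.

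Genes of border macrophages and dendritic cells gave these counts: 26 of 32 members tested rose, 1 fell and the median log2 change was 3.38. Stab1, a scavenger receptor of perivascular macrophages, was at 21.1 and 19.48 CPM in the WT libraries and 1166 and 1456 CPM in those labelled cGAS-KO (log2 change 6.01 ± 0.31, adjusted p = 1.78e-07). Mrc1, the mannose receptor, was at 3.31 and 1.02 CPM in WT and 70.6 and 30.4 CPM in labelled cGAS-KO (log2 change 4.56). Flt3, a receptor of dendritic cells and their precursors, fell (16.8 and 16.1 CPM in WT and 3.44 and 3.76 CPM in labelled cGAS-KO, log2 change -2.18). Lymphocyte genes were less uniform: 13 of 34 members tested rose, 2 fell and the median log2 change was 1.90. Cd3e, part of the T cell receptor complex, was at 0.224 and 0.102 CPM in WT and 0.603 and 0.309 CPM in labelled cGAS-KO (adjusted p = 0.282). Cd8a did not pass either (adjusted p = 0.546). Cd4, which macrophages also express, rose from 0.617 and 0.511 CPM to 5.61 and 5.97 CPM (log2 change 3.35). Thy1, which is also a gene of projection neurons, fell by 1.75 on the log2 scale. For neutrophils and mast cells 8 of 13 members tested rose, 1 fell and the median log2 change was 2.89. S100a8, an alarmin of neutrophils, was at 0.0561 and 0.307 CPM in WT and 4.77 and 3.76 CPM in labelled cGAS-KO (log2 change 4.45). With the call kept, the fold moved by over 1.5 times for Mrc1 (log2 change 5.60 without WT library 1, 3.93 without WT library 2, 3.79 without labelled cGAS-KO library 1) and S100a8 (log2 change 3.74 without WT library 1, 6.08 without WT library 2).

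Erythroid genes were higher: 5 of 7 members tested rose, 1 fell and the median log2 change was 3.48. Hba-a1 was at 17.1 and 33.1 CPM in the WT libraries and 326 and 253 CPM in those labelled cGAS-KO (log2 change 3.52 ± 0.68, adjusted p = 0.00122), against 20.1 and 36.97 CPM in STING-KO at day 7. Hbb-bt was at 1.91 and 4.70 CPM in WT and 45.55 and 45.02 CPM in labelled cGAS-KO (log2 change 3.76). Alas2, which starts haem synthesis in red cell precursors, was at 0.897 and 1.43 CPM in WT and 10.3 and 10.96 CPM in labelled cGAS-KO (log2 change 3.17). Haemoglobin genes made up 0.0881% and 0.0711% of all counts in the libraries labelled cGAS-KO and 0.00423% and 0.00813% in WT. The pair labelled cGAS-KO was outside the 10 other libraries for 5 of 7 members. Haemoglobin genes have near-identical copies, between which reads may be split, and the part of blood in other differences was not tested. Single libraries left out moved the fold by over 1.5 times, with the call kept, for Hbb-bt (log2 change 4.57 without WT library 2).

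Vessel genes were mostly higher. For endothelium and barrier 28 of 40 members tested rose, 4 fell and the median log2 change was 1.66. Cldn5, a tight junction gene, was at 41.51 and 45.6 CPM in the WT libraries and 242 and 137 CPM in those labelled cGAS-KO (log2 change 2.12 ± 0.53, adjusted p = 0.00614). Cdh5, the cadherin of endothelium, was at 12.45 and 10.9 CPM in WT and 182 and 80.00 CPM in labelled cGAS-KO (log2 change 3.49). Library 1 labelled cGAS-KO was above library 2 in both. Summed CPM of the list was 2043 and 2201 CPM in the WT libraries and 3647 and 2286 CPM in those labelled cGAS-KO. Mfsd2a, a lipid transporter of the blood-brain barrier, fell (19.97 and 24.49 CPM in WT and 11.1 and 8.13 CPM in labelled cGAS-KO, log2 change -1.21 ± 0.28, adjusted p = 0.00341). Slc2a1, encoding the glucose transporter GLUT1, did not pass (96.98 and 107 CPM in WT and 199 and 122 CPM in labelled cGAS-KO, adjusted p = 0.0557). Of mural cell genes 22 of 25 members tested rose, 0 fell and the median log2 change was 1.86. Pdgfrb was at 27.1 and 26.6 CPM in WT and 235 and 139.8 CPM in labelled cGAS-KO (log2 change 2.80 ± 0.28, adjusted p = 1.17e-05). Acta2, the actin of smooth muscle and myofibroblasts, was at 6.00 and 4.81 CPM in WT and 63.8 and 25.7 CPM in labelled cGAS-KO (log2 change 3.05). The call was lost on leaving out 1 library for Cldn5 (log2 change 2.04 without WT library 1, 1.62 without labelled cGAS-KO library 1). The test passed with 1 library fewer for Slc2a1 (log2 change 0.89 without labelled cGAS-KO library 2). Single libraries moved the fold by over 1.5 times, with the call kept, for Cdh5 (log2 change 2.74 without labelled cGAS-KO library 1) and Acta2 (log2 change 2.21 without labelled cGAS-KO library 1).

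Collagens and fibroblast matrix genes rose: 50 of 55 members tested rose, 2 fell and the median log2 change was 3.06. Here the pair labelled cGAS-KO stood outside all 10 other libraries in 34 of 55 members, and the WT pair in 13. Over all genes tested the shares were 8.64% and 28.9%. The rise was not particular to the cGAS-KO label. STING-KO at day 7 gave a median log2 change of 2.41 against the same WT libraries. In the test of labelled cGAS-KO against STING-KO, 2 of 55 members passed. Col1a1, the main chain of type I collagen, was at 10.49 and 10.48 CPM in the WT libraries and 1566 and 1032 CPM in those labelled cGAS-KO (log2 change 6.95 ± 0.79, adjusted p = 3.04e-05), against 694 and 590.3 CPM in STING-KO at day 7. Lum, a leucine-rich proteoglycan of fibroblasts, was at 4.54 and 2.61 CPM in WT and 172 and 87.7 CPM in labelled cGAS-KO (log2 change 5.19). Col25a1 fell (97.4 and 113 CPM in WT and 17.7 and 16.2 CPM in labelled cGAS-KO, log2 change -2.64), and it is a membrane collagen of neurons. Proteoglycans and perineuronal nets were mixed: 17 of 40 members tested rose, 8 fell and the median log2 change was 0.40. Hapln4, a link protein of perineuronal nets, was at 164 and 146 CPM in WT and 24.8 and 24.49 CPM in labelled cGAS-KO (log2 change -2.65). Acan, encoding aggrecan, was at 7.85 and 3.68 CPM in WT and 1.93 and 2.11 CPM in labelled cGAS-KO (log2 change -1.50), whereas Tnc, a matrix protein of scars, rose by 2.44 on the log2 scale. Bcan (368 and 354 CPM in WT and 213 and 264 CPM in labelled cGAS-KO, adjusted p = 0.134) and Ncan (adjusted p = 0.284) did not pass. One library less ended the call of Acan (log2 change -0.88 without WT library 1, -1.48 without labelled cGAS-KO library 1, -1.64 without labelled cGAS-KO library 2). Single libraries left out moved the fold by over 1.5 times, with the call kept, for Lum (log2 change 4.58 without labelled cGAS-KO library 1).

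Genes of the ventricle lining were higher in the libraries labelled cGAS-KO. In the choroid plexus list 28 of 30 members tested rose, 0 fell and the median log2 change was 3.99. Ttr, encoding transthyretin, was at 102 and 49.55 CPM in the WT libraries and 2376 and 4205 CPM in those labelled cGAS-KO (log2 change 5.44 ± 1.04, adjusted p = 0.00116). Kcne2, a potassium channel subunit of this epithelium, was at 0.954 and 0.511 CPM in WT and 9.17 and 32.2 CPM in labelled cGAS-KO (log2 change 4.83). Library 2 labelled cGAS-KO was the higher in both. Summed CPM of the list was 445 and 333 CPM in the WT libraries and 3896 and 6836 CPM in those labelled cGAS-KO. For ependyma and motile cilia 32 of 42 members tested rose, 3 fell and the median log2 change was 2.02, with the WT pair outside all others in 30 of 42. Foxj1, the factor that drives motile cilia, was at 12.3 and 5.22 CPM in WT and 56.8 and 62.8 CPM in labelled cGAS-KO (log2 change 2.78 ± 0.38, adjusted p = 0.000105). Ccdc39 did not pass (27.4 and 29.4 CPM in WT and 23.2 and 28.8 CPM in labelled cGAS-KO, adjusted p = 0.637). How much of either list reflects the cut of the tissue was not tested. The fold moved by over 1.5 times, still called, for Ttr (log2 change 6.04 without WT library 1), Kcne2 (log2 change 5.42 without labelled cGAS-KO library 1, 3.57 without labelled cGAS-KO library 2) and Foxj1 (log2 change 3.50 without WT library 1).

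Proliferation genes rose: 51 of 54 members tested rose, 2 fell and the median log2 change was 3.15. Top2a, a topoisomerase of dividing cells, was at 0.505 and 0.614 CPM in the WT libraries and 73.8 and 66.4 CPM in those labelled cGAS-KO (log2 change 6.95 ± 0.44, adjusted p = 5.93e-07). Aurkb, a mitotic kinase, was at 0.280 and 0.307 CPM in WT and 17.3 and 18.4 CPM in labelled cGAS-KO (log2 change 5.89). Pcna, the DNA polymerase clamp, was at 36.96 and 35.4 CPM in WT and 124 and 106 CPM in labelled cGAS-KO (log2 change 1.67). The cyclin gene Ccnd2 fell (66.4 and 83.8 CPM in WT and 47.7 and 54.9 CPM in labelled cGAS-KO, log2 change -0.55). Of p53 targets and repair genes 27 of 44 members tested rose, 3 fell and the median log2 change was 0.88. Brca1, a homologous recombination gene, was at 0.897 and 1.23 CPM in WT and 11.46 and 10.9 CPM in labelled cGAS-KO (log2 change 3.38). Cdkn1a, the inhibitor p21, was at 13.9 and 15.2 CPM in WT and 55.9 and 49.3 CPM in labelled cGAS-KO (log2 change 1.86). Mdm2 did not pass (56.48 and 59.6 CPM in WT and 71.3 and 78.00 CPM in labelled cGAS-KO, adjusted p = 0.0737). Ccnd2 lost its call on leaving out 1 library (log2 change -0.37 without WT library 2, -0.49 without labelled cGAS-KO library 1).

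Genes of the pathway that the knockout targets were higher: in the list of cytosolic DNA sensing 32 of 41 members tested rose, 2 fell and the median log2 change was 1.69. Tmem173 was at 2.80 and 2.71 CPM in the WT libraries and 28.7 and 30.3 CPM in those labelled cGAS-KO (log2 change 3.42 ± 0.27, adjusted p = 1.78e-06). Irf3 was at 29.2 and 24.3 CPM in WT and 63.1 and 62.9 CPM in labelled cGAS-KO (log2 change 1.24). Tbk1 was nearly equal in the 4 libraries (58.1 and 58.2 CPM in WT and 60.6 and 55.51 CPM in labelled cGAS-KO, adjusted p = 0.985). Both Enpp1 and Dnase2a, enzymes that remove the messenger or the DNA, rose. Enpp1, which breaks down cyclic GMP-AMP outside cells, was at 5.55 and 4.19 CPM in WT and 97.2 and 91.8 CPM in labelled cGAS-KO (log2 change 4.28 ± 0.28, adjusted p = 5.43e-07). Dnase2a, the lysosomal nuclease that digests engulfed DNA, was at 6.11 and 4.55 CPM in WT and 95.2 and 93.8 CPM in labelled cGAS-KO (log2 change 4.15). The RNA sensor gene Ifih1 was at 4.54 and 4.14 CPM in WT and 20.3 and 19.3 CPM in labelled cGAS-KO (log2 change 2.19), and the kinase gene Ikbke had a log2 change of 3.98. Trim32, a ubiquitin ligase, fell (189 and 192 CPM in WT and 49.3 and 67.8 CPM in labelled cGAS-KO, log2 change -1.70). Trex1, the cytosolic exonuclease, had 0 counts in all 4 libraries and was not tested. Against the same WT libraries, the STING-KO libraries gave a log2 change of 3.78 for Enpp1 and 4.35 for Dnase2a, and the comparisons share those controls.

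Promoters of called genes are shown for 2 of these lists and for the dense-core vesicle list, because short motifs are known for such genes. Sequences are from RefSeq on GRCm38.p6, the 150 bases that end just before the annotated start, 5′ to 3′ on the gene's strand, and capitals mark the motif on either strand. Those shown are called members of each list that hold the motif there, taken in order of adjusted p. Not every promoter of a list was considered for display, so a member with a smaller adjusted p may also hold the motif. The interferon-stimulated response element core, GAAANNGAA, is shown for Ifih1 (chr2:62646256-62646405, minus strand) and Ifi205 (chr1:174031756-174031905, minus strand), an interferon-inducible gene with 0 counts in WT and 17 in labelled cGAS-KO, which is at least 3.06-fold higher against a floor of 3 counts per library. The call of Ifi205 was lost without either WT library.
Ifih1: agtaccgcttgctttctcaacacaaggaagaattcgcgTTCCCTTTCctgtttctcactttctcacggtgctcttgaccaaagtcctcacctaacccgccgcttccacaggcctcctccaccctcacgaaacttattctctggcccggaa
Ifi205: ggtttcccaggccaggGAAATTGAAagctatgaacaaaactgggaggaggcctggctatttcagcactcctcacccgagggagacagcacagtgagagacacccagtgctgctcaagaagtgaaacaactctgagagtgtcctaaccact
The cell cycle homology region, TTTGAA, is shown for the proliferation genes Mki67 (chr7:135716380-135716529, minus strand, log2 change 4.55) and Cdk1 (chr10:69352913-69353062, minus strand, log2 change 6.89).
Mki67: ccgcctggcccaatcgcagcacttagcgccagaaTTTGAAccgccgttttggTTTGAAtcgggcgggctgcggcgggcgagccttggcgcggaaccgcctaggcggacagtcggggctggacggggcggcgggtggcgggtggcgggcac
Cdk1: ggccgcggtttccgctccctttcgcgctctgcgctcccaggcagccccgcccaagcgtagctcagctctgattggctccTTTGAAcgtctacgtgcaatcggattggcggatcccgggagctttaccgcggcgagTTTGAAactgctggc
The cyclic AMP response element, TGACGTCA, is shown for the dense-core vesicle genes Chgb (chr2:132781492-132781641, plus strand, log2 change -2.98) and Scg2 (chr1:79440027-79440176, minus strand, log2 change -2.55).
Chgb: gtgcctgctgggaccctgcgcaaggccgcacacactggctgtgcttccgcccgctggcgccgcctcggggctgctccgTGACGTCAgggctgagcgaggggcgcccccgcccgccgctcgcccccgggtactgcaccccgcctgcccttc
Scg2: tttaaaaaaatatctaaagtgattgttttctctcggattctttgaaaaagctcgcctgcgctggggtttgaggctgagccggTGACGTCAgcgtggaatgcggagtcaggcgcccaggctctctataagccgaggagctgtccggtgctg
Motifs were counted in the 250 bases before each start. GAAANNGAA was in 7.13% of 32851 promoters, 6.38% of those of genes tested, 8.67% of those of genes called at least 2-fold higher, 5.96% of those at least 2-fold lower, and 7 of 39 promoters of the DNA-sensing list. TTTGAA was in 15.99%, 11.4%, 13.7% and 10.2% of the same sets and in 11 of 42 promoters of the proliferation list. TGACGTCA was in 1.55%, 2.29%, 1.22% and 2.53%, and in 5 of 31 promoters of the dense-core vesicle list. The E-box palindrome TCACGTGA, known from lysosome and autophagy genes, was in 0.785% of all promoters, 1.25% of those of genes tested and in 1 of 37 of the autophagy list. GAAANNGAA and TTTGAA share the letters GAA, so 1 stretch can count for both. A match describes letters only, and 13423 of 19810 symbols tested had a promoter in the table.

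Growth factor genes changed in both directions: 26 of 45 members tested rose, 7 fell and the median log2 change was 1.08. Tgfb1 was at 6.51 and 6.08 CPM in the WT libraries and 147 and 143 CPM in those labelled cGAS-KO (log2 change 4.53 ± 0.29, adjusted p = 5.93e-07). Igf1 was at 10.99 and 11.50 CPM in WT and 182 and 219 CPM in labelled cGAS-KO (log2 change 4.15 ± 0.45, adjusted p = 2.01e-05). Both are made by microglia and macrophages. Fgf13, an intracellular regulator of neuronal sodium channels, was at 203 and 226 CPM in WT and 25.7 and 32.6 CPM in labelled cGAS-KO (log2 change -2.88). Ntrk2, the receptor for BDNF in neurons and astrocytes, did not pass (539 and 565 CPM in WT and 429 and 555 CPM in labelled cGAS-KO, adjusted p = 0.477). For axon guidance and growth inhibition 9 of 46 members tested rose, 23 fell and the median log2 change was -0.60. Slit1 was at 318 and 347 CPM in WT and 23.9 and 31.49 CPM in labelled cGAS-KO (log2 change -3.59). Epha4 was at 339.6 and 346 CPM in WT and 42.05 and 52.7 CPM in labelled cGAS-KO (log2 change -2.85). Sema3a, a repellent also made by meningeal fibroblasts, rose (3.03 and 2.56 CPM in WT and 25.2 and 12.2 CPM in labelled cGAS-KO, log2 change 2.74). Single libraries moved the fold by over 1.5 times, with the call kept, for Sema3a (log2 change 2.09 without labelled cGAS-KO library 1).

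TGF-beta and BMP signalling genes gave these counts: 26 of 45 members tested rose, 6 fell and the median log2 change was 0.70. Tgfbr2, a receptor, was at 22.8 and 17.8 CPM in the WT libraries and 283 and 273 CPM in those labelled cGAS-KO (log2 change 3.78 ± 0.26, adjusted p = 7.2e-07). Thbs1, an activator of latent TGF-beta, was at 2.36 and 3.53 CPM in WT and 175 and 152 CPM in labelled cGAS-KO (log2 change 5.79). The ligand Tgfb2 fell (53.8 and 59.9 CPM in WT and 18.46 and 23.8 CPM in labelled cGAS-KO, log2 change -1.43). For Notch, Wnt and Hedgehog signalling 27 of 58 members tested rose, 7 fell and the median log2 change was 0.73. Notch2 rose by 1.76 on the log2 scale and the Wnt co-receptor Lrp5 by 2.52. The Wnt target Axin2 did not pass (37.97 and 33.7 CPM in WT and 29.3 and 27.9 CPM in labelled cGAS-KO, adjusted p = 0.124). Lgr5, a receptor for R-spondins, fell (4.49 and 4.04 CPM in WT and 0.543 and 0.669 CPM in labelled cGAS-KO, log2 change -2.79).

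Actin remodelling genes of migrating cells rose: 44 of 48 members tested rose, 0 fell and the median log2 change was 2.11. Arpc1b, a subunit of the Arp2/3 complex enriched in leukocytes, was at 17.8 and 15.3 CPM in the WT libraries and 427 and 401 CPM in those labelled cGAS-KO (log2 change 4.64 ± 0.31, adjusted p = 7.36e-07). Actb was at 952 and 973 CPM in WT and 2887 and 2739 CPM in labelled cGAS-KO (log2 change 1.55). The core subunit Actr2 of the same complex did not pass (349 and 359 CPM in WT and 300.1 and 318 CPM in labelled cGAS-KO, adjusted p = 0.266).

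Genes of energy metabolism changed in both directions. For hypoxia and glycolysis 13 of 41 members tested rose, 17 fell and the median log2 change was -0.42. The hexokinase gene Hk2 was at 7.01 and 5.52 CPM in the WT libraries and 36.02 and 52.6 CPM in those labelled cGAS-KO (log2 change 2.82 ± 0.28, adjusted p = 7.71e-06). Hk3 was at 1.96 and 1.79 CPM in WT and 64.2 and 80.52 CPM in labelled cGAS-KO (log2 change 5.27). Eno2, the enolase of neurons, was at 856 and 872 CPM in WT and 196 and 243 CPM in labelled cGAS-KO (log2 change -1.98). Pfkm was at 380.5 and 393 CPM in WT and 132 and 146 CPM in labelled cGAS-KO (log2 change -1.47). Of nuclear-encoded respiratory chain subunits 3 of 75 members tested rose, 20 fell and the median log2 change was -0.26. Ndufs1, a complex I subunit, was at 134 and 127 CPM in WT and 72.6 and 73.2 CPM in labelled cGAS-KO (log2 change -0.84 ± 0.13, adjusted p = 0.000181). Cox4i1, of complex IV, did not pass (392 and 400.4 CPM in WT and 379 and 376 CPM in labelled cGAS-KO, adjusted p = 0.815). None of 15 mitochondrial genome transcripts was called, including mt-Co1 at 12851 and 13572 CPM in WT and 12241 and 11988 CPM in labelled cGAS-KO (adjusted p = 0.71).

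Lipid genes differed by pathway in their counts. In cholesterol synthesis and uptake 2 of 34 members tested rose, 14 fell and the median log2 change was -0.55. Sqle, a squalene-oxidising enzyme of this pathway, was at 46.1 and 55.4 CPM in the WT libraries and 26.9 and 29.6 CPM in those labelled cGAS-KO (log2 change -0.85 ± 0.19, adjusted p = 0.00311). For fatty acid oxidation and ketones 19 of 33 members tested rose, 5 fell and the median log2 change was 0.87. Cpt1a, which brings fatty acids into mitochondria, was at 25.6 and 25.6 CPM in WT and 153 and 153 CPM in labelled cGAS-KO (log2 change 2.58 ± 0.16, adjusted p = 4.39e-07). Cd36, a fatty acid and scavenger receptor, was at 0.897 and 0.614 CPM in WT and 60.1 and 101 CPM in labelled cGAS-KO (log2 change 6.74). Ppargc1a, a coactivator of mitochondrial genes that is high in interneurons, fell (46.6 and 44.7 CPM in WT and 13.9 and 18.3 CPM in labelled cGAS-KO, log2 change -1.50).

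Stress response genes changed in both directions. In the integrated stress response 13 of 34 members tested rose, 10 fell and the median log2 change was 0.35. Atf4, its central factor, did not differ beyond its spread (109.9 and 113 CPM in WT and 119 and 101 CPM in labelled cGAS-KO, adjusted p = 0.931). Its known target Asns, asparagine synthetase, fell (84.3 and 83.9 CPM in WT and 17.9 and 22.02 CPM in labelled cGAS-KO, log2 change -2.07 ± 0.17, adjusted p = 1.78e-06). Gdf15, a stress cytokine, rose (0.337 and 0.102 CPM in WT and 8.02 and 9.21 CPM in labelled cGAS-KO, log2 change 5.29). Of chaperones 19 of 37 members tested rose, 5 fell and the median log2 change was 0.66. Hspa5, of the endoplasmic reticulum, was at 167 and 169 CPM in WT and 408 and 509.9 CPM in labelled cGAS-KO (log2 change 1.45). P4hb, which also modifies collagen, was at 90.3 and 91.3 CPM in WT and 469 and 433 CPM in labelled cGAS-KO (log2 change 2.31). The cytosolic Hsph1 fell (log2 change -1.13). For NRF2 targets and ferroptosis 21 of 37 members tested rose, 6 fell and the median log2 change was 0.87. Hmox1, which breaks down haem, was at 6.73 and 4.91 CPM in WT and 135 and 124 CPM in labelled cGAS-KO (log2 change 4.47 ± 0.27, adjusted p = 3.5e-07). Slc7a11, the cystine transporter, was at 33.7 and 38.1 CPM in WT and 359 and 166 CPM in labelled cGAS-KO (log2 change 2.87). Gpx4, the enzyme that blocks lipid peroxidation, did not pass (177 and 169.9 CPM in WT and 262 and 244 CPM in labelled cGAS-KO, adjusted p = 0.0935). With the call kept, the fold moved by over 1.5 times for Gdf15 (log2 change 6.29 without WT library 1, 4.65 without WT library 2) and Slc7a11 (log2 change 2.17 without labelled cGAS-KO library 1).

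Protein turnover and synthesis genes were measured in 4 lists. In the proteasome list 8 of 39 members tested rose, 3 fell and the median log2 change was 0.06. The regulatory subunit gene Psmd2 did not pass (181 and 179 CPM in WT and 199 and 184 CPM in labelled cGAS-KO, adjusted p = 0.588). The immunoproteasome subunits Psmb8 (3.53 and 2.20 CPM in WT and 40.9 and 40.4 CPM in labelled cGAS-KO, log2 change 3.83 ± 0.32, adjusted p = 2.16e-06) and Psmb9 (log2 change 3.48) rose. For autophagy 7 of 37 members tested rose, 13 fell and the median log2 change was -0.25. Of 2 close relatives of the LC3 family, Gabarap rose (102 and 101 CPM in WT and 331 and 317 CPM in labelled cGAS-KO, log2 change 1.68 ± 0.16, adjusted p = 4.91e-06). Gabarapl1 fell (423 and 438 CPM in WT and 171 and 177 CPM in labelled cGAS-KO, log2 change -1.31 ± 0.13, adjusted p = 6.72e-06). Tfeb, the factor that drives lysosome genes, rose by 2.23 on the log2 scale. Cytosolic ribosomal protein genes gave these counts: 63 of 67 members tested rose, 0 fell and the median log2 change was 1.12. Such genes made up 2.74% and 2.43% of all counts in the libraries labelled cGAS-KO and 1.18% and 1.10% in WT. Whether RNA quality or library preparation has a part in this was not tested. Rplp0 was at 203 and 192 CPM in WT and 846 and 706 CPM in labelled cGAS-KO (log2 change 1.97). Of mitochondrial ribosomal protein genes 8 of 66 members tested rose, 3 fell and the median log2 change was 0.05. Mrpl3 fell (73.4 and 76.3 CPM in WT and 48.3 and 45.9 CPM in labelled cGAS-KO, log2 change -0.67).

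RNA-binding protein genes changed in both directions: 5 of 46 members tested rose, 23 fell and the median log2 change was -0.33. Rbfox1, a splicing factor of neurons, was at 364 and 367 CPM in the WT libraries and 45.1 and 57.6 CPM in those labelled cGAS-KO (log2 change -2.83 ± 0.19, adjusted p = 5.96e-07). Ptbp1, the splicing repressor that neurons switch off, was at 30.01 and 30.01 CPM in WT and 131 and 121 CPM in labelled cGAS-KO (log2 change 2.07 ± 0.13, adjusted p = 4.95e-07). Clock genes fell more often than they rose: 2 of 23 members tested rose, 13 fell and the median log2 change was -0.66. Nr1d1, the repressor REV-ERB alpha, was at 71.01 and 76.9 CPM in WT and 33.1 and 31.8 CPM in labelled cGAS-KO (log2 change -1.19), Cry2 changed by -1.28 on the log2 scale. Arntl, encoding BMAL1, did not pass (27.99 and 30.4 CPM in WT and 22.8 and 21.4 CPM in labelled cGAS-KO, adjusted p = 0.0904). The labels used here do not give the hour at which tissue was taken.

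Transporters at the blood-brain interface gave the following: 19 of 30 members tested rose, 3 fell and the median log2 change was 0.76. Slc12a7, a potassium-chloride cotransporter of non-neuronal cells, was at 5.55 and 4.86 CPM in WT and 69.50 and 42.1 CPM in labelled cGAS-KO (log2 change 3.42 ± 0.34, adjusted p = 8.3e-06). The neuronal one, Slc12a5, encoding KCC2, was at 684 and 711 CPM in WT and 142 and 215 CPM in labelled cGAS-KO (log2 change -1.97 ± 0.25, adjusted p = 5.06e-05). Slc40a1, encoding the iron exporter ferroportin, rose by 2.05 on the log2 scale.

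Among RNAs that the annotation does not class as protein-coding, the imprinted long noncoding RNAs H19 and Meg3 moved in opposite directions. H19, known from fetal and mesenchymal tissue, was at 0.280 and 0.409 CPM in the WT libraries and 131 and 111 CPM in those labelled cGAS-KO (log2 change 8.42 ± 0.76, adjusted p = 4.07e-06). Meg3, abundant in neurons, was at 5202 and 5594 CPM in WT and 1619 and 2201 CPM in labelled cGAS-KO (log2 change -1.50 ± 0.28, adjusted p = 0.000948). Of the most abundant genes, Apoe, the lipid carrier of astrocytes and microglia, was at 1786 and 1713 CPM in WT and 17978 and 22311 CPM in labelled cGAS-KO (log2 change 3.53 ± 0.34, adjusted p = 6.83e-06). Ctsb, a lysosomal protease, was at 477 and 454 CPM in WT and 7219.8 and 7948 CPM in labelled cGAS-KO (log2 change 4.03).

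The 2 libraries of a group were not alike in every tissue component. Between the libraries labelled cGAS-KO, library 1 had the larger sums for collagens and fibroblast matrix (14847 against 10243 CPM), and library 2 for choroid plexus (6836 against 3896 CPM) and striatal projection neurons (1416 against 786 CPM). Between the WT libraries, library 1 had more of the myelin list (9868 against 6779 CPM) and of the thalamic list (1616 against 1367 CPM). Except for the striatal list, the gap between the groups was larger than these gaps within them. The myelin sums did not overlap, with 16591 and 18739 CPM in labelled cGAS-KO.

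Against STING-KO at day 7 the libraries labelled cGAS-KO differed in 32 genes, 17 higher and 15 lower, and the genes named in this comparison were chosen after their values were seen. Serpinh1, a collagen chaperone, was at 354 and 277 CPM in labelled cGAS-KO and 144 and 118 CPM in STING-KO (log2 difference 1.27 ± 0.19, adjusted p = 0.0383). Tbx18, a factor of pericytes and meningeal fibroblasts, was at 51.1 and 33.1 CPM in labelled cGAS-KO and 15.7 and 10.9 CPM in STING-KO (log2 difference 1.67 ± 0.27, adjusted p = 0.0401). Gjb2 was at 119.6 and 78.1 CPM in labelled cGAS-KO and 23.7 and 23.4 CPM in STING-KO (log2 difference 2.07 ± 0.23, adjusted p = 0.00645). The red cell genes Alas2 and Hbb-bt were also higher, Alas2 at 10.3 and 10.96 CPM in labelled cGAS-KO and 1.15 and 1.11 CPM in STING-KO (log2 difference 3.22 ± 0.46, adjusted p = 0.0326). Lower were the thalamic genes Shox2, at 0.362 and 0.309 CPM in labelled cGAS-KO and 19.50 and 9.75 CPM in STING-KO (log2 difference -5.42 ± 0.48, adjusted p = 0.00242), and Ntng1, at 7.84 and 7.05 CPM in labelled cGAS-KO and 23.3 and 31.2 CPM in STING-KO (log2 difference -1.88 ± 0.28, adjusted p = 0.0383). The protease gene Mmp12 was at 30.2 and 17.4 CPM in labelled cGAS-KO and 69.01 and 103 CPM in STING-KO (log2 difference -1.86 ± 0.30, adjusted p = 0.0383). How many genes passed varied with the libraries kept and the tool. Without library 1 labelled cGAS-KO no gene passed in edgeR (1154 had an unadjusted p below 0.05). Without library 2 there were 202, and DESeq2 called 264.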

How the data were processed

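Libraries were mapped with HISAT2 and counted per gene with featureCounts on mm10, per the submitters' processing notes; versions, strand setting and annotation release are not given in the sources used here. The values used are the deposited read counts per gene, not normalized by the authors, for 12 libraries of 15956242 to 22126213 counts. Without a known strand setting, reads from overlapping or antisense genes cannot be told apart.

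Genes with at least 10 counts in enough libraries for their group size and 15 in all were kept by edgeR's filter (19822 of 54532). One quasi-likelihood model over 6 groups was fitted in edgeR 4.0.16 (R 4.3.3) with trimmed mean of M-values factors and 6 residual degrees of freedom, and p-values were adjusted by Benjamini-Hochberg over all genes tested. Symbols, biotypes and lengths were taken from a GENCODE annotation of GRCm38, in which 54495 of the gene IDs had a symbol. Contrasts were cGAS-KO against WT at day 7, the same at day 14, and the day-7 effect minus that of day 14. STING-KO against WT and cGAS-KO against STING-KO were fitted at day 7. DESeq2 1.42.0, other scalings, filters and fits, a replicate block and leaving out each of the 4 libraries were the alternatives. The fitting script was tested on simulated data.

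The members and the gene lists were chosen with earlier results of these data known. Named genes came from a rule: Cgas and Tmem173, 5 defining genes per list, the members of each list called with the smallest p, those called against the list's main direction, its most abundant uncalled members, and the 10 largest separated rises and falls of protein-coding genes with a mean log2 CPM of at least 3; Ifih1, Ifi205, Scg2 and the genes against STING-KO were chosen after their values were seen. Genes without counts in a group are given against a floor of 3 counts per library, and with 1 to 3 counts as a ratio with an exact 95% interval. Intervals and floors cover counting error only. A few genes that the rule names are not reported here.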

Additional observations from a re-analysis of the deposited data

Results flagged for a closer look

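The effect of the cGAS-KO label differed between day 7 and day 14 in 7271 of 19822 genes (edgeR quasi-likelihood test of the interaction, Benjamini-Hochberg adjusted p below 0.05). The values here are the log2 effect at day 7 minus that at day 14 for the 10 largest rises and 10 largest falls of day 7 among called protein-coding genes with a mean log2 CPM of at least 3 and no overlap between the groups, and each passed that test. Since those genes were picked for their day-7 change, the direction of the difference is no independent result.

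Among the rises, the difference was 10.54 for Col3a1, 9.43 for Lox, 9.63 for Lyz2, 10.07 for Wfdc17, 9.90 for Lilr4b, 9.24 for Lgals3, 10.69 for Gpnmb and 11.55 for Spp1. For Cd5l (14.51) and Atp6v0d2 (15.16) the fitted value depends on the prior count, because the day-7 WT libraries held 1 and 0 counts. Among the falls it was -9.23 for Lct, -8.42 for C1ql2, -5.15 for Dsp, -4.55 for Npy2r, -4.53 for Epha6, -4.49 for Pcdh20, -4.45 for Cabp7, -4.10 for Shisa6, -4.07 for Gabra5 and -2.93 for Slc17a6.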

How the results depend on the processing

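The count of 9964 genes called at day 7 stayed within 1.5 times under all 14 alternatives: 9366 to 10729 with all libraries of both groups, and 7261 to 8774 when 1 of the 4 libraries was left out. With the replicate block it was 10023. The libraries share only a number: the correlation of same-numbered deviations was 0.0704 over 19822 genes. Of 201 genes named, 168 kept both their call, or lack of one, and the sign of their change under every alternative. No called gene changed direction, and 15 called genes lost the call under at least 1 alternative, of which 6 did so with all 12 libraries. Without labelled cGAS-KO library 1 or 2, the medians of 24 and 25 of 55 lists moved by more than the spread between libraries, and without WT library 2, 27 of 110 list counts moved by over 1.5 times. Medians of 52 of 55 lists kept their sign; the homeostatic astrocyte (-0.18 to 0.10), proteasome (-0.04 to 0.11) and mitochondrial ribosomal lists (-0.03 to 0.10) did not.

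The 32 genes that separated labelled cGAS-KO from STING-KO at day 7 became 264 with DESeq2, 60 without a filter, and 6 and 5 with edgeR's legacy fit without and with robust estimation, and ranged from 0 to 202 when 1 library was left out (0 without labelled cGAS-KO library 1, 11 without either WT library); the cause was not tested. Refitted with only genes above 1 CPM, the median log2 change was 0.31 in the shortest and -0.61 in the longest decile by gene length, -0.35 in the longest by exonic length, and 0.64 and -0.36 in the lowest and highest deciles by expression; the cause was not tested.

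Some uncalled genes passed in other fits: Tbr1, Fos, Egr1, Bcan, Mdm2, Gpx4 and Arntl with only the 4 libraries, Egr1 with DESeq2, and Slc2a1 with library totals only and with the replicate block. Other uncalled genes changed sign. Leaving out 1 library gave ranges of -1.16 to 1.24 for Drd1, -2.32 to 1.04 for Drd2, -0.11 to 1.74 for Penk, -0.86 to 0.20 for Wfs1, -0.093 to 0.24 for Slc1a3, -0.19 to 0.017 for Atf4 and -0.0094 to 0.080 for Psmd2 (log2 changes). With library totals only, Tbk1 was at 0.044 and Atf4 at 0.026. With 2 libraries a group, small changes of genes with few counts were not detectable at this depth, where 3 counts are 0.153 to 0.181 CPM.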
